A study of Mus musculus with 6 samples.

Results

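Mitochondrial ribosomal protein genes encode the proteins of the ribosome that works inside mitochondria. The members were taken by name, with earlier results of these data known. They are all rows of the mRNA count table whose Ensembl identifier belongs to a mouse symbol starting with Mrpl or Mrps and a digit. A total of at least 10 counts over the 6 libraries was also required. All 78 rows with such a symbol passed that minimum, of 21965 rows in the table and 14792 genes tested. The mRNA came from bone marrow cells of C57BL/6 males (C57BL/6J in the methods), aged 12 weeks when exposure began, that were grown as endothelial progenitor cells (EPCs), the cells thought to help repair the lining of blood vessels. The CAP group was 3 mice that breathed concentrated ambient fine particles (CAP) at a mean of 67 µg/m3 for 6 h per day over 30 days, and the air group was 3 mice kept in filtered air. The 3 mice of a group shared 1 cage, so cage and exposure cannot be told apart, and the cells were then cultured for 12 days according to the sample labels or 10 days according to the methods. The labels name no transgene, and each library came from 1 mouse.

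Mitochondria keep a small genome of their own, and the few proteins it encodes, all of them core parts of the respiratory chain or the ATP synthase, are made on mitochondrial ribosomes. The ribosomal RNA of these ribosomes comes from the mitochondrial genome, whereas every protein of them is encoded in the nucleus, made in the cytosol and imported. A large subunit (Mrpl genes) forms the peptide bond, and a small subunit (most Mrps genes) reads the mRNA. Some of the proteins descend from bacterial ribosomal proteins, and others, called mitochondrion-specific here, were gained by mitochondria, mostly with no bacterial counterpart. Symbols do not follow the subunit in every case: the products of Mrps18a and Mrps30 sit in the large subunit, and that of Mrps36 is now known as a component of the 2-oxoglutarate dehydrogenase complex, not of the ribosome. By this assignment 51 members belonged to the large subunit, 26 to the small subunit, and Mrps36 to neither.

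The libraries held 28713206 to 30446171 counts, and the members took 0.258%, 0.287% and 0.260% of the counts of CAP replicates 1 to 3, against 0.273%, 0.228% and 0.245% in air replicates 1 to 3. Values are normalized counts, that is, counts divided by a size factor from relative log expression (RLE). Transcripts of the 14 macrophage markers summed to 549275 to 679138 normalized counts in CAP libraries and 732925 to 776815 in air libraries, whereas the 12 endothelial markers summed to only 2845 to 3520 and 2969 to 5169. Lyz2 alone was at 283302 to 297966 in CAP libraries and at 358916 to 378387 in air libraries. The macrophage sums thus follow 1 gene in large part, and they were not computed without it. Tek, an endothelial receptor, was at 0, 0 and 3.002 in CAP libraries and at 4.08, 24.2 and 87.7 in air libraries. Kdr, another endothelial receptor, was at 225, 528 and 211 in CAP libraries and at 155, 230 and 283 in air libraries. Of the 12 endothelial markers 10 had a negative log2 fold change (CAP minus air) and 2, Kdr and Eng, a positive one. CAP replicate 2 stood apart from the other libraries: it was the highest of the 6 in all 30 genes of a mitosis list and the lowest in 10 of 12 stromal markers. These are bulk libraries, in which fewer cells of a type and less RNA per cell cannot be told apart.

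Most members were expressed at a similar, moderate level. Their mean over the 6 libraries ran from 18.8 normalized counts (Mrpl53) to 2040 (Mrpl33, picked as the maximum after its value was seen), with a median of 896, and 69 of 78 exceeded 500. Per kilobase of annotated exon, which allows genes to be compared, the median was 361 for the members and 137 for all 14764 protein-coding genes tested. The highest members on this scale were Mrps21 at 1410, Mrpl34 at 1376 and Mrpl54 at 1212, the homologues of a small bacterial S21 protein and of bacterial L34, and a mitochondrion-specific protein of the large subunit. The lowest were Mrpl53 at 23.8, Mrpl23 at 50.8 and Mrps35 at 61.5, of which Mrpl23 encodes a protein of the peptide exit region. Exon length here joins all annotated transcripts of a gene, so that a long transcript lowers the value whether or not it is used in these cells, and Mrps35 has the longest exons of all members, at 8631 bases.

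**Figure D1:**
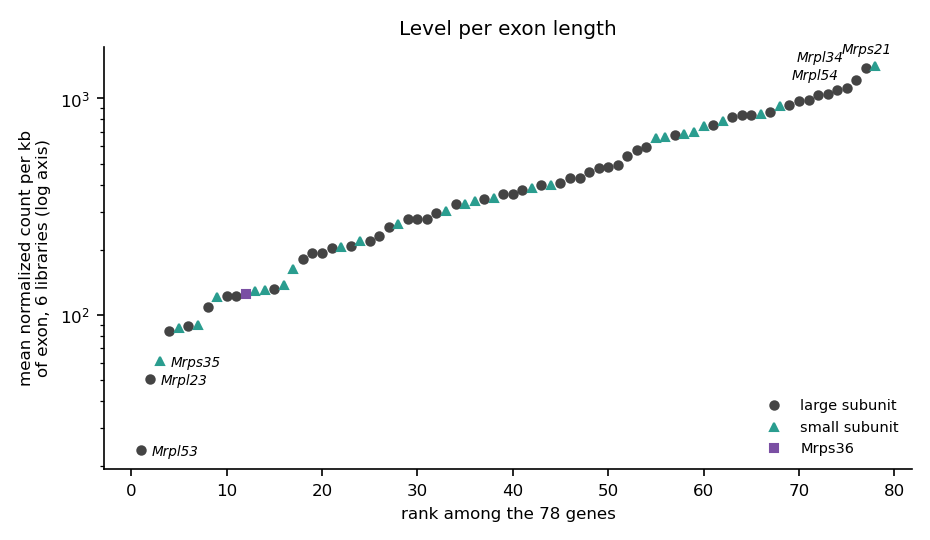
Mean normalized count per kilobase of exon over the 6 libraries (log axis) of the 78 genes, ranked from low to high, with symbols by subunit. Mrpl53 lies lowest at 23.8 and Mrps21 highest at 1410, and the genes of both subunits are spread over the whole range.

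The order of the levels was nearly fixed from mouse to mouse. Across the members, the rank correlation of the level per kilobase between any 2 libraries was 0.974 to 0.992, which is a description across genes and not across independent samples. It was not computed for other genes, and the exon length that divides a level is the same in every library. The correlation is therefore not shown to be a trait of the members. The mean level of large subunit members over that of small subunit members came to 1.15, 1.14 and 1.17 for CAP replicates 1 to 3, against 1.17, 1.17 and 1.13 for air replicates 1 to 3. The ratio of the medians varied more, at 1.22, 1.15 and 1.21 for the CAP libraries and 1.19, 1.38 and 1.15 for the air libraries, with air replicate 2 the highest. The spread between mice was lower than over all genes tested. The median coefficient of variation was 9.26% in the CAP group and 11.5% in the air group, against 19.5% and 13.99% over all genes. The median standard error of a log2 fold change was 0.16 for the members and 0.21 for all genes. It was lower still for cytosolic ribosomal protein genes (0.127) and for nuclear genes of the respiratory chain and ATP synthase (0.135). A low spread was thus not particular to the members. The sets also differ in level, with a lower quartile of 689 normalized counts for the members and 105 for all protein-coding genes tested.

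No member passed the test between CAP and air. With edgeR's quasi-likelihood test and Benjamini-Hochberg adjustment over all 14792 genes, 0 of 78 members were higher and 0 were lower in CAP at an adjusted p under 0.05, and the smallest adjusted p was 0.468. The background was 0% of all genes in each direction. With DESeq2 0 members were called in either direction as well, against 0.158% of all genes higher and 0.0144% lower. At an unadjusted p under 0.05, edgeR put 4 of 78 members higher, against 5.89% of all genes, and 0 lower, against 4.68%. The 95% interval of the fold change lay within 2-fold in both directions for 77 of 78 members, all but Mrpl53, and within 1.5-fold for 61.

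The direction was uneven, at a small size. A positive log2 fold change (CAP minus air) was found for 61 of 78 members, against 48.8% of all genes, with a median of 0.09 for the members and -0.01 for all genes. Single libraries moved that count. Without CAP replicate 2 it was 53 of 78 (47.2% of all genes), without air replicate 1 it was 72 (49.1%), and without air replicate 2 it was 49 (50.5%). The median was then 0.05, 0.15 and 0.04. The groups overlapped when the libraries were taken one by one: the median member stood 0.06, 0.18 and 0.05 above the air mean on the log2 scale in CAP replicates 1 to 3, and at 0.15, -0.12 and -0.03 in air replicates 1 to 3. Air replicate 1 was thus above CAP replicates 1 and 3. CAP replicate 2 was the highest library in 39 of 78 members (29.8% of all genes), and air replicate 2 the lowest in 41 (16.8%).

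**Figure D2:**
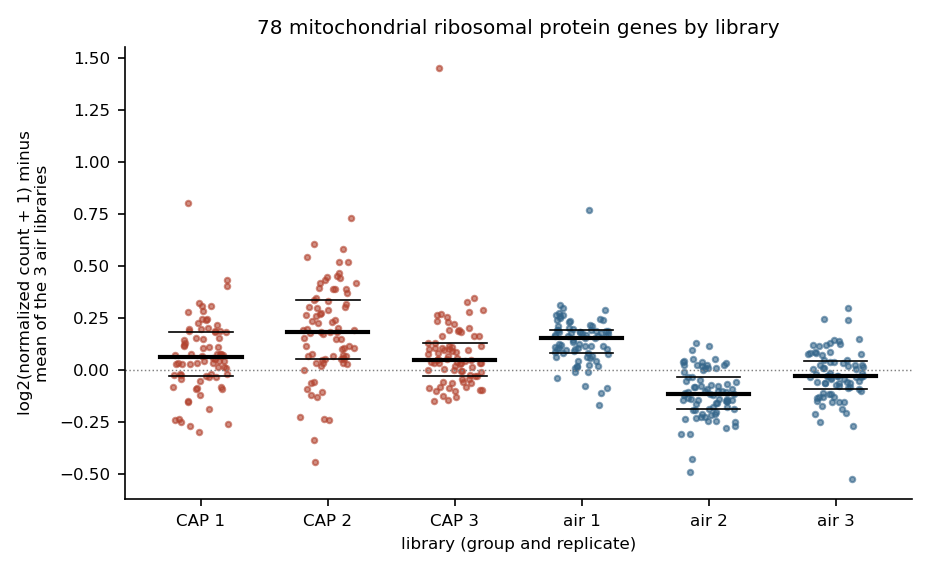
Each point is 1 of the 78 genes in 1 library, as log2(normalized count + 1) minus the mean of the 3 air libraries, with CAP libraries at the left and air libraries at the right. Thick bars are medians and thin bars quartiles. CAP replicates 1 to 3 had medians of 0.06, 0.18 and 0.05, and air replicates 1 to 3 had medians of 0.15, -0.12 and -0.03.

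Members without any overlap between the groups numbered 6 of 78, all higher in CAP, against 8.44% of all genes. In the opposite direction there were 0, against 8.46% of all genes. The 6 were Mrpl1, Mrpl35, Mrpl40, Mrpl42, Mrps18b and Mrps28. The other 72 members had at least 1 CAP library inside the range of the air libraries, or the reverse.

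Among the bacterial homologues of the large subunit, 23 of 29 had a positive log2 fold change, with a median of 0.09. Mrpl35, a homologue of bacterial L35 on chr6:71812997-71826969 (GRCm38, minus strand), had the lowest p of all members. It was at 856, 929 and 787 normalized counts in CAP replicates 1 to 3 and at 692, 604 and 650 in air replicates 1 to 3. Every CAP library lay above every air library, by a narrow gap, and edgeR's estimate was a log2 fold change of 0.40, with 0.15 as its standard error and 0.468 as its adjusted p. Mrpl1, a protein of the stalk beside the exit site of tRNA, did not overlap either, at 502, 628 and 575 in CAP libraries and 451, 496 and 491 in air libraries, but CAP replicate 1 exceeded the highest air library by little. Mrpl12 encodes the stalk protein that recruits translation factors, and it also binds the mitochondrial RNA polymerase. It was at 1611, 2162 and 1587 in CAP libraries and at 1606, 1245 and 1431 in air libraries. Only CAP replicate 2 stood clear of the air group, and the log2 fold change of 0.32 (standard error 0.17) was 0.16 without that library.

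The lowest values of the subunit, those of Mrpl34 and Mrpl24, were in the same class. Mrpl34, the homologue of L34, was at 739, 750 and 851 in CAP libraries and at 1024, 782 and 864 in air libraries, with a fold change of -0.19 on the log2 scale (standard error 0.16) that came to -0.078 without air replicate 1. Mrpl24, which binds early in the assembly of the subunit in bacteria, was at 1962, 1462 and 1910 in CAP libraries and at 1974, 1842 and 2160 in air libraries. CAP replicate 2 was the lowest of the 6 for Mrpl24, in contrast to most members, and its log2 fold change, -0.16, came to -0.05 without that library. Mrpl9 had a log2 fold change of -0.05 and Mrpl23 one of 0.02, and both groups spanned nearly the same range for each. The groups overlapped in all 4.

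Of the 22 mitochondrion-specific members of the large subunit, which coat its surface, 18 had a positive value, with a median of 0.13. Mrpl42 on chr10:95480805-95501940 (minus strand) was at 1635, 1797 and 1808 in CAP libraries and at 1532, 1433 and 1312 in air libraries, with a fold change of 0.29 on the log2 scale (standard error 0.12). Mrpl40 was at 917, 989 and 906 in CAP libraries and at 877, 723 and 641 in air libraries, and its log2 fold change was 0.33, with a standard error of 0.16. The groups did not overlap for either gene, and the distance from the lowest CAP library to air replicate 1 was small in both. Mrpl46 was at 487, 639 and 552 in CAP libraries and at 504, 481 and 411 in air libraries, with overlap through CAP replicate 1. Mrpl48 was the lowest of the class at -0.10 (standard error 0.17).

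Mrpl53 had the largest log2 fold change of all, 0.87, and also by far the largest standard error, 0.59, and it rested on few reads. It was at 21.9, 15.99 and 35.0 normalized counts in CAP libraries and at 21.4, 10.1 and 8.15 in air libraries, so that air replicate 1 lay within the CAP range. Its 95% interval ran from -0.47 to 2.22, and its value ran from 0.52 without CAP replicate 3 to 1.40 without air replicate 1. Of its 790 exon bases, 695 are shared with Gm42688, a protein-coding gene on the same strand that has a row of its own in the table, and the rule by which reads in shared exons were assigned is not stated in those sources that were used. The level of Mrpl53 is therefore uncertain. Exons overlapped those of another gene on the same strand in 8 of 78 members and on the opposite strand in 28.

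**Figure D3:**
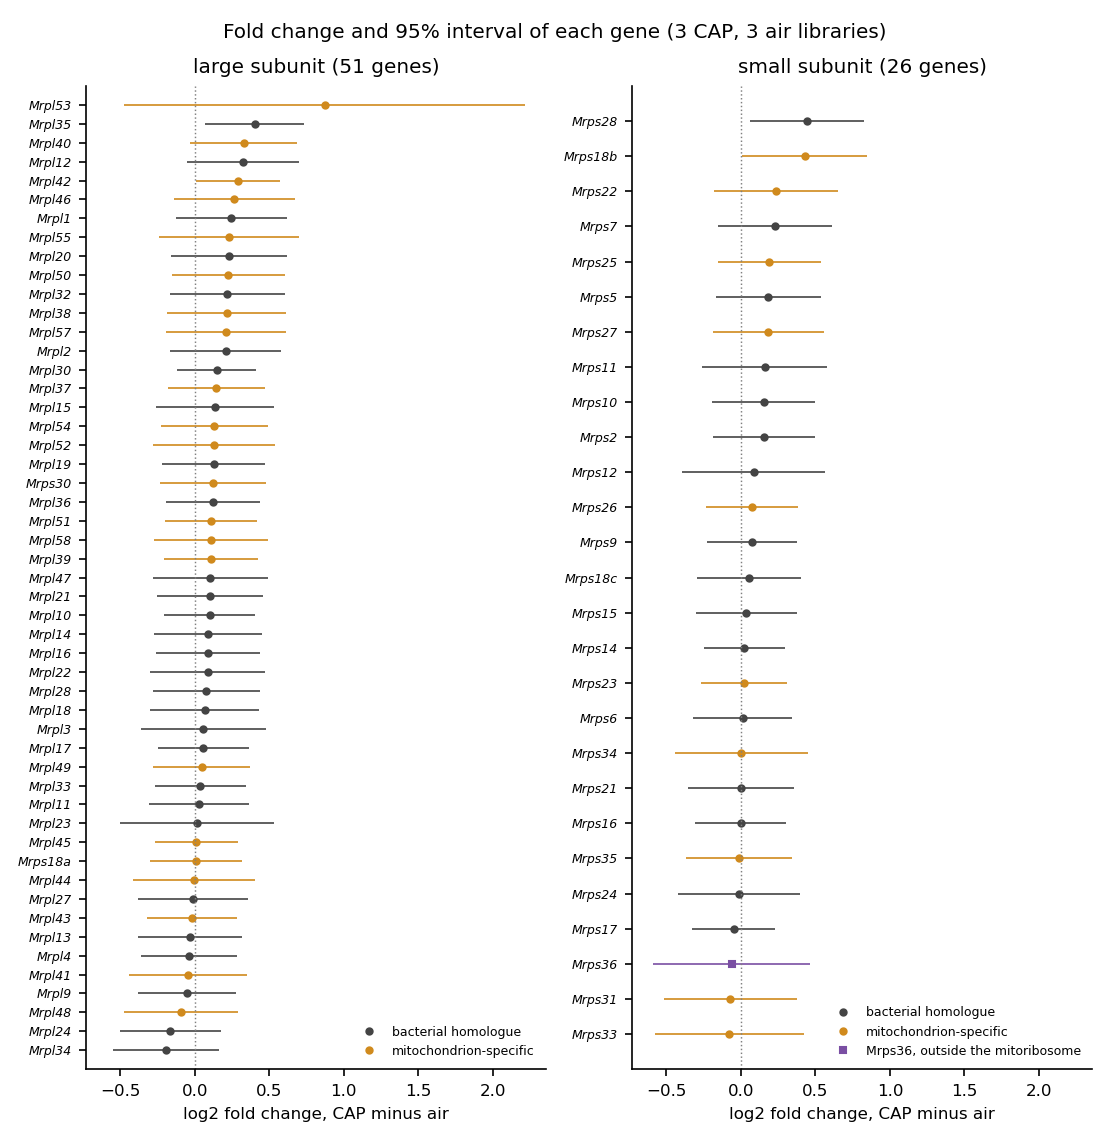
Log2 fold change (CAP minus air, x axis) of each gene with its 95% interval from edgeR's quasi-likelihood fit, for the large subunit at the left and for the small subunit with Mrps36 at the right. Colours separate bacterial homologues from mitochondrion-specific proteins. The points run from -0.19 (Mrpl34) to 0.87 (Mrpl53), 61 of 78 are above 0, and the intervals of all but 4 genes include 0.

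In the small subunit 20 of 26 members had a positive log2 fold change, with a median of 0.06, against 41 of 51 and 0.10 in the large subunit. The medians without CAP replicate 2 were 0.03 in the small and 0.06 in the large subunit. Of the 16 bacterial homologues, 13 were positive, and of the 10 mitochondrion-specific members 7 were, with medians of 0.06 and 0.05. Mrps28, a homologue of bacterial S1 on chr3:8802146-8923918 (minus strand), was at 607, 673 and 564 in CAP libraries and at 509, 415 and 432 in air libraries. The groups did not overlap, and the log2 fold change was 0.44 (standard error 0.17, adjusted p = 0.468 in edgeR's test). Mrps7 encodes a protein of the head of the subunit that organizes the decoding site. It was at 1320, 1952 and 1447 in CAP libraries and at 1434, 1263 and 1326 in air libraries, and its log2 fold change of 0.23 shrank to 0.04 without CAP replicate 2.

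For other named members of the small subunit the values lay close to 0. Mrps17 was at 1272, 1417 and 1238 in CAP libraries and at 1316, 1373 and 1374 in air libraries, a log2 fold change of -0.05 with a standard error of 0.12. Mrps31 (-0.07), Mrps35 (-0.01) and Mrps21 (0.00) also had intervals on both sides of 0, and Mrps21, the member of highest level per kilobase, averaged 1042 ± 124 in CAP libraries and 1041 ± 131 in air libraries (SD, n = 3 each). The sign of Mrps21 turned negative under TMM normalization.

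The Mrps18 genes are 3 relatives of 1 bacterial gene whose products hold different places in the ribosome, and Mrps18a and Mrps18b, as extra copies in places of their own, were counted as mitochondrion-specific. Mrps18b, a small subunit member on chr17:35910379-35916389 (minus strand), was at 668, 886 and 605 in CAP libraries and at 563, 498 and 543 in air libraries, without overlap. Its log2 fold change of 0.43 (standard error 0.18) was 0.25 without CAP replicate 2. Mrps18c, which keeps the bacterial position in the small subunit, was at 747, 952 and 889 in CAP libraries and at 862, 884 and 745 in air libraries, with overlap throughout and a log2 fold change of 0.05. Mrps18a, of the large subunit, was at 1049, 935 and 1089 in CAP libraries and at 1078, 937 and 1044 in air libraries, with a log2 fold change of 0.01. The differences between the relatives were not tested.

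**Figure D4:**
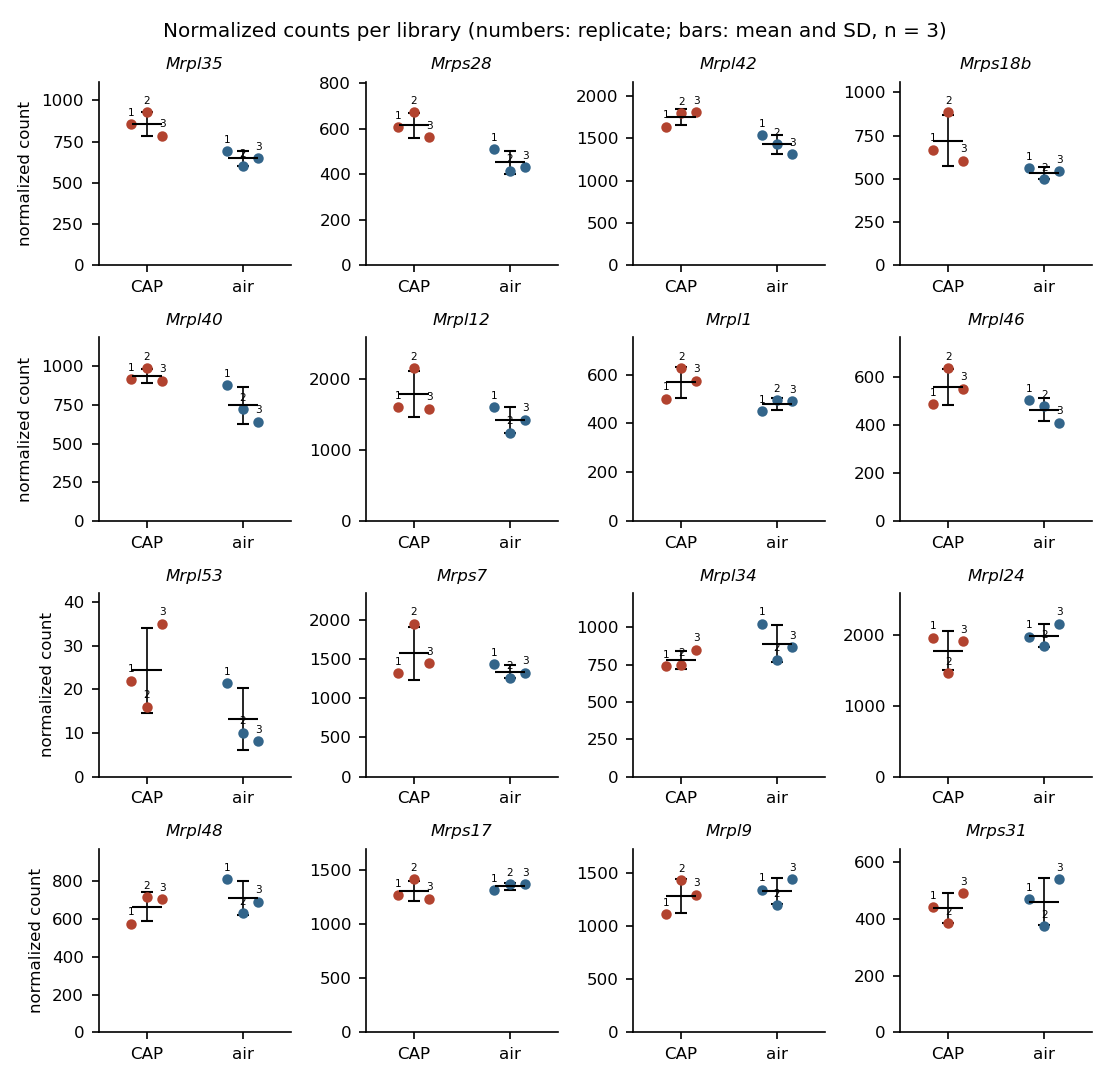
Normalized counts (y axis, from 0) in the 3 CAP and 3 air libraries for the 10 genes of lowest p with a positive and the 6 with a negative log2 fold change. Numbers mark the replicate, and bars are the mean and SD (n = 3). In Mrpl35, Mrps28, Mrpl42, Mrps18b, Mrpl40 and Mrpl1 all CAP libraries lie above all air libraries, and in the other 10 genes the groups overlap.

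Another 5 mitochondrial ribosomal proteins carry other symbols, and all 5 genes had a positive log2 fold change. Ptcd3, an RNA-binding protein of the small subunit, was at 1031, 1453 and 1030 in CAP libraries and at 843, 1034 and 826 in air libraries, a log2 fold change of 0.38 (0.19 without CAP replicate 2). The values were 0.34 for Gadd45gip1 of the large subunit and, in the small subunit, 0.24 for Chchd1, 0.10 for Dap3, which binds GTP, and 0.02 for Aurkaip1. Single libraries moved several of these: Chchd1 was at 0.034 without CAP replicate 2, Dap3 at 0.011 without air replicate 3, Gadd45gip1 at 0.21 and Aurkaip1 at -0.029 without air replicate 2. The groups overlapped in all 5, and 0 of 5 passed the test with edgeR or DESeq2, or had an unadjusted p under 0.05. Aurkaip1, at 2039, 2049 and 2051 in CAP libraries and 2193, 1884 and 1984 in air libraries, was nearly constant in the CAP group.

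The factors that work with these ribosomes gave no common direction. Of 13 translation factors 5 were positive and 8 negative (median -0.05), of 25 assembly factors 15 were positive (median 0.04), and of 19 regulators of mitochondrial transcription and biogenesis 10 were positive (median 0.03). None of these genes passed edgeR's test, or DESeq2's, at an adjusted p under 0.05. Only Tsfm and Myc, both higher in CAP, had an unadjusted p under 0.05 with edgeR (5.89% of all genes were higher and 4.68% lower). In the first list the elongation factors had the lowest p. Tsfm, which recharges the elongation factor Tufm, was at 526, 776 and 638 in CAP libraries and at 486, 414 and 435 in air libraries, without overlap and with a log2 fold change of 0.54 (standard error 0.19). Tufm itself, which brings tRNA to the ribosome, had 0.29 with overlap, and Gfm1, which moves the ribosome along the mRNA, had 0.25 (0.09 without CAP replicate 2).

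Among the assembly factors, 2 methyltransferases of the large ribosomal RNA had values of opposite sign, 0.57 for Mrm3 (0.27 without CAP replicate 2) and -0.43 for Mrm2. Mrm2 was at 228, 205 and 173 in CAP libraries and at 255, 223 and 338 in air libraries. Nsun4, which methylates the small ribosomal RNA and helps to join the subunits, had 0.29 without overlap. Among the regulators, Myc, a transcription factor of growth genes, was at 1019, 1918 and 817 in CAP libraries and at 672, 667 and 623 in air libraries. The log2 fold change of Myc was 0.94 (standard error 0.29) and 0.48 without CAP replicate 2, and its adjusted p was 0.468 by edgeR. Pprc1, a coactivator of mitochondrial genes, had 0.70 (0.21 without CAP replicate 2), and Lrpprc, which stabilizes mitochondrial mRNAs, had 0.32 (0.15).

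Other ribosome and mitochondrial gene lists differed in size from the members. The 79 cytosolic ribosomal protein genes had a median log2 fold change of 0.02, with 47 positive. The 81 nuclear genes of the respiratory chain and ATP synthase had a median of 0.02, with 44 positive. The latter list holds no gene of the mitochondrial genome. The 30 nucleolar genes that build cytosolic ribosomes had a median of 0.60, with all 30 positive, and the 30 mitosis genes a median of 0.77, also with all 30 positive. Without CAP replicate 2 these medians were 0.28 and 0.34. The libraries ordered the lists differently: the median mitosis gene stood at 0.52, 1.51 and 0.14 in CAP replicates 1 to 3 and at -0.02, 0.14 and -0.12 in air replicates 1 to 3. The median cytosolic ribosomal protein gene stood at -0.03, 0.06 and 0.05 in CAP libraries and at 0.17, -0.14 and -0.04 in air libraries. The median respiratory chain or ATP synthase gene (0.15 and -0.09) and the median nucleolar gene (0.15 and -0.08) were likewise high in air replicate 1 and low in air replicate 2, as were the members and the cytosolic ribosomal proteins. The members also had their highest median in CAP replicate 2, as the mitosis and nucleolar genes did at a larger size. The part of these library patterns in the values of the members was not tested.

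**Figure D5:**
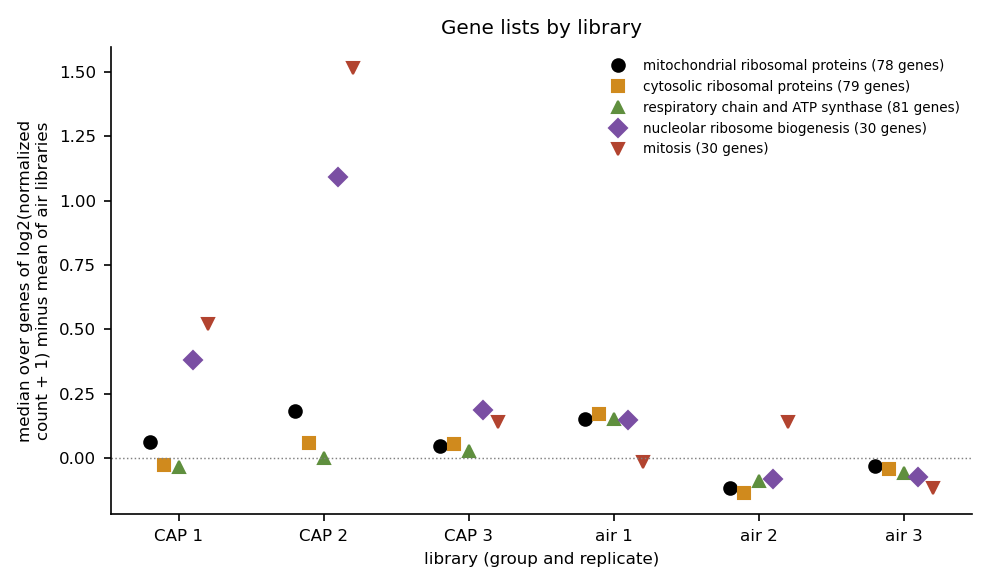
Median over the genes of a list of log2(normalized count + 1) minus the mean of the 3 air libraries (y axis), by library, with CAP libraries at the left and air libraries at the right. Mitosis genes (1.51) and nucleolar genes (1.09) stand high in CAP replicate 2, whereas mitochondrial ribosomal protein genes stay between -0.12 and 0.18 in all 6 libraries.

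Most markers of macrophages, stromal cells and endothelial cells had lower mean values in CAP libraries, by amounts that single libraries moved. A negative log2 fold change was found for 12 of 14 macrophage markers (median -0.21, and -0.11 without CAP replicate 2) and 11 of 12 stromal markers (median -0.34). The macrophage exceptions were Fcgr1 (0.65) and Csf1r (0.11), and the stromal one was Sparc (0.48). Fcgr1 was at 1815, 1764 and 1643 in CAP libraries and at 1077, 1037 and 1204 in air libraries. Its adjusted p was 0.468 with edgeR and 0.0087 with DESeq2. Without overlap, 1 macrophage marker (Fcgr1) was higher and 4 lower in CAP, and 1 stromal marker (Sparc) higher and 1 lower. The shares of all genes were 8.44% and 8.46%. Without CAP replicate 2 the stromal median was -0.13, with 8 of 12 negative. Of the endothelial markers 10 of 12 were negative (median -1.37), and without air replicate 3, the highest library in 10 of the 12, the median was -0.51 with 8 of 12 negative. The endothelial sum was 5169 in air replicate 3, and the sums of 3118 and 2969 in air replicates 1 and 2 lay within the CAP range. Eng alone gave 1850 and 1471 of those 2 sums, so 1 gene made up a large part of each. Taken singly, 4 of the 12 markers were lower in CAP without overlap (Tek, Nos3, Cdh5 and Pecam1), against 8.46% of all genes. In the opposite direction there were 0. Cdh5 was at 189, 58.9 and 179 in CAP libraries and at 212, 239 and 958 in air libraries. In CAP replicate 2, Tek, Nos3, Cldn5 and Erg were at 0, whereas the receptor Kdr was at 528, the highest of the 6 libraries, and Eng at 1991, above the 3 air libraries. The granulocyte markers were negative in 4 of 8 (median -0.06, and -0.67 without CAP replicate 3). The stromal markers summed to 101371 to 175394 normalized counts in CAP libraries and to 165832 to 236767 in air libraries, and the granulocyte markers to 380 to 569 and 434 to 770. The part of cell composition in the values of the members was not tested.

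The genes are short and spread over 17 chromosomes, with 11 on chromosome 11, 8 on chromosome 17 and 7 on chromosome 6. The median member spans 7900 bases in GENCODE vM21, against 23852 for all protein-coding genes tested. In 23 of 78 members (29.5%) another protein-coding gene starts head to head, on the opposite strand and within 1000 bases (or with an overlap of up to 300 bases), against 11.9% of the protein-coding genes tested.

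The sequence around the starts was searched for motifs of factors known to bind promoters of nuclear genes for mitochondrial proteins. RefSeq windows (GRCm38.p6) of 250 bases before to 50 after the start were found for 69 members, with 75 windows in all, and both strands were read. The ETS motif CCGGAAG, which GABP binds, was in 34.7% of the windows of members and 15.5% of 14626 windows of all genes tested. The YY1 motif AAGATGGCG was in 10.7% and 2.56%, and the motif of NRF1 in 17.3% and 8.72%. An E-box, CACGTG, which MYC and other factors bind, was in 9.33% and 9.34%, and the GC box GGGCGG in 52% and 59%. The median GC content was 58.7% for windows of members and 60% for those of tested genes. The ETS and YY1 motifs can overlap through the letters AAG. A match is a run of letters and was not tested for binding. The windows below are examples from members of lowest p, of highest level or of the Mrps18 group. Others from these groups are not shown, among them an ETS window of Mrps18c and an NRF1 window of Mrps21. The motif is in capitals, and each window is written 5′ to 3′ on the strand of the gene.
Mrpl35, YY1, chr6:71823742-71823771, minus strand: ggcaggctgcAAGATGGCGgcttccatctt
Mrpl42, YY1, chr10:95501903-95501932, minus strand: agattgaagcAAGATGGCGagcgcgcggtg
Mrps18a, YY1, chr17:46111005-46111034, plus strand: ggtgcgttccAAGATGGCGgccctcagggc
Mrps18a, ETS, chr17:46110967-46110996, plus strand: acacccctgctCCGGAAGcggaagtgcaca
Mrps18b, ETS on the opposite strand, chr17:35916391-35916420, minus strand: tgtcccgagcatgcgcagtcgctCTTCCGG
Mrpl34, ETS, chr8:71464878-71464907, plus strand: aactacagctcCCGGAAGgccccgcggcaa
Mrps21, ETS on the opposite strand, chr3:95871478-95871507, minus strand: cgtagcttccgCTTCCGGtccgcagagacc
Mrpl12, NRF1 on the opposite strand, chr11:120484546-120484575, plus strand: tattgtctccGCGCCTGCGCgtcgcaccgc

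In Mrpl35, Mrpl42 and Mrps18a the YY1 motif lies 23, 27 and 11 bases after the first base of the RefSeq transcript. The 8 members with this motif were Mrpl35, Mrpl36, Mrpl37, Mrpl42, Mrps11, Mrps18a, Mrps24 and Mrps27, and their log2 fold changes ran from -0.01 (Mrps24) to 0.40 (Mrpl35). Mrps28, Mrps34, Mrps35, Mrpl4, Mrpl13, Mrpl15, Mrpl19, Mrpl38 and Mrpl54 had no matched window.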

How the data were processed

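mRNA of 3 CAP and 3 air libraries was analysed. The authors aligned single-end reads of stranded poly-A libraries to mm10 with STAR 2.6 and counted them per gene with HTSeq 0.10.0, according to the study's methods and the submitters' processing notes; the deposited table gives unnormalized counts with a column for each mouse. Counting near-identical or overlapping genes can lower their values, and the strand setting is not given in the sources used here. Symbols, coordinates and exons came from GENCODE vM21 (GRCm38), which matched 99.9% of the identifiers, and promoter windows from RefSeq.

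Counts were scaled by RLE, only genes with at least 10 counts in all were kept, and the difference between CAP and air was tested by the quasi-likelihood method of edgeR 4.0.16 in R 4.3.3, without a block, with Benjamini-Hochberg adjustment over 14792 genes and a threshold of 0.05. Standard errors were obtained by dividing the size of a log2 fold change by the root of its F statistic. As alternatives, limma-voom (limma 3.58.1) and DESeq2 1.42.0 were run, beside TMM normalization, other count filters, a replicate block and each library left out. After the data were seen, the older form of edgeR's test was added, as was leaving out libraries for the marker lists. The scripts were tested on simulated data. Values with a pseudocount of 1 were used for log2 levels by library. The biological coefficient of variation was 26.3%, so that spread between mice and not depth limits all but rare genes.

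The members, the lists and the tests were chosen with earlier results of these data known. Named genes were the 10 members of lowest p with a positive and the 6 with a negative log2 fold change, the 3 highest and 3 lowest per kilobase, the Mrps18 genes, the 5 ribosomal proteins with other symbols, and the 3 of lowest p in each pathway list. The subunit and lineage of each member were assigned from general knowledge of the ribosome.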

Additional observations from a re-analysis of the deposited data

How the results depend on the processing

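No member was called at an adjusted p under 0.05 under any of the 13 alternatives: TMM normalization, no count filter, filterByExpr, DESeq2, limma-voom, the replicate block, the older form of edgeR's test and each of the 6 libraries left out. The smallest adjusted p of any member over these ran from 0.217 (without CAP replicate 3) to 0.851 (without air replicate 3). The count with an unadjusted p under 0.05 was 4 with edgeR, the same 4 genes with DESeq2, and 3 with limma-voom. It was 2 with the replicate block, Mrpl35 and Mrps28. With a library left out it ran from 0 to 4, and it was 0 without CAP replicate 1, air replicate 2 or air replicate 3. The share of all genes at this threshold was computed for the main edgeR setting only (5.89% higher and 4.68% lower in CAP). The counts under the alternatives therefore cannot be read as a result about the members. Replicate numbers come from the sample titles, and the column names of the counts number the mice in part otherwise, so equal numbers do not show pairs. The deviations of same-numbered libraries correlated at -0.02, 0.09 and 0.17 across genes, and those of other combinations at -0.20 to 0.11. A correlation across genes cannot settle whether mice were paired. Members with a positive log2 fold change numbered 49 to 72 with a library left out and 59 to 63 under the other alternatives. The median then ran from 0.04 to 0.15 for all members, from 0.04 to 0.17 for the large subunit and from 0.03 to 0.13 for the small subunit. Members without overlap numbered 8 to 28 with a library left out, where fewer libraries have to be kept apart. The share of all genes without overlap was not computed for these settings, so the counts cannot be read as a result about the members. The count of members without overlap uses no test, so limma-voom, the block and the older form give no value for it.

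Of 36 named genes, 27 kept their sign under all alternatives and 9 did not. Mrps21 was at -0.0049 with TMM. With a library left out the log2 fold changes ran from -0.17 to 0.0086 for Mrpl48, from -0.15 to 0.040 for Mrpl9, from -0.20 to 0.059 for Mrps31, from -0.099 to 0.092 for Mrps21, from -0.098 to 0.13 for Mrpl23, from -0.055 to 0.055 for Mrps35, from -0.050 to 0.063 for Mrps18a, from -0.029 to 0.15 for Mrps18c and from -0.029 to 0.081 for Aurkaip1. Among members of lowest p the range was 0.34 to 0.46 for Mrpl35 and 0.37 to 0.54 for Mrps28. Among those that kept their sign, Mrpl34 ran from -0.28 to -0.08 and Mrpl53 from 0.52 to 1.40. Leaving out libraries for the marker lists was added after the data were seen, and their medians ran from -1.66 to -0.51 for endothelial, from -0.66 to -0.13 for stromal, from -0.34 to -0.11 for macrophage and from -0.67 to 0.035 for granulocyte markers. The cause of these shifts was not tested. With 3 mice a group, log2 differences of the size of the median standard error, 0.16, cannot be separated from the spread between mice.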

Other observations

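Of the 23 genes that start head to head with a member, 0 passed edgeR's or DESeq2's test at an adjusted p under 0.05. At an unadjusted p under 0.05 with edgeR, 5.89% of all genes were higher and 4.68% lower in CAP. Of the 23 genes 3 reached that threshold, all higher in CAP. These 3 and Fau, chosen after their values were seen and set beside the member on the other side of the start, had the following values. Ska3, a gene of the spindle and kinetochore, was at 290, 478 and 224 normalized counts in CAP libraries and at 223, 186 and 179 in air libraries, without overlap and with a log2 fold change of 0.75 (standard error 0.30). Its neighbour Mrpl57, whose start lies 49 bases away, had 0.21. Ncapd2, a condensin subunit, had 0.59 (standard error 0.25), and its neighbour Mrpl51 had 0.11. Eme1, a subunit of a DNA repair nuclease, had 0.93 (standard error 0.39), and its neighbour Mrpl27 had -0.01. Fau, a cytosolic ribosomal protein gene that starts 59 bases from Mrpl49, had -0.01, and Mrpl49 had 0.05. The difference within each pair was not tested.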
